A study of Mus musculus with 14 samples.

Results

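Transcripts of 33 genes for fatty acid uptake and beta-oxidation were followed in mouse quadriceps muscle with and without HDAC3, the histone deacetylase of the NCoR and SMRT corepressor complexes. The genes were chosen by symbol for their known role, with earlier results of these data already known. All 33 were found among the 24354 gene symbols of the deposited expression table. They comprise 6 genes of uptake and activation, 6 of the carnitine shuttle, 18 of mitochondrial oxidation and 3 of peroxisomal oxidation. RNA-seq was compared between 3 HDAC3 knockout libraries and 3 HDAC3 wild-type libraries. Both groups were quadriceps of male C57B/6 mice aged 4 months, on normal chow and a normal light/dark schedule, at rest at zeitgeber time 10 (ZT10, hours after lights on). The labels do not state what drives the deletion or in which cells it acts. They also do not state that the replicates are different mice, so p-values cover only the spread among these libraries, which may be technical.

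Muscle takes up fatty acids released from lipoproteins by lipoprotein lipase, with help from the membrane protein CD36 and the transport proteins of the SLC27 family, and carries them in the cytosol on a fatty acid binding protein. Acyl-CoA synthetases couple them to coenzyme A, the carnitine shuttle moves the long-chain acyl groups into mitochondria, and a repeated sequence of dehydrogenation, hydration, dehydrogenation and thiolysis then shortens the chain. Electrons from the acyl-CoA dehydrogenases pass through the electron transfer flavoprotein to the respiratory chain. Peroxisomes carry out a related oxidation of very long and branched chains.

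Levels are in FPKM, which divides the fragments of a gene by its length and by the size of the library, so they can be compared between genes. FPKM summed to between 464777 and 495099 in knockout and between 454359 and 484510 in wild-type libraries. From the step size of low values, the depth relative to wild-type replicate 1 was 0.660 to 0.832 in knockout libraries and 0.831 to 1.02 in wild-type libraries. Hdac3 itself was at 5.51, 6.29 and 8.16 FPKM in knockout and at 33.3, 31.0 and 23.7 FPKM in wild-type libraries, 4.41-fold lower in knockout (limma, adjusted p = 0.00632, and between 0.00872 and 0.0334 without each library in turn). Muscle markers dominated both groups: the fast myosin gene Myh4 lay between 7706 and 11251 FPKM in knockout and between 7988 and 8357 FPKM in wild type, while the slow myosin gene Myh7 lay between 0.288 and 0.404 FPKM in knockout and between 0.393 and 1.47 FPKM in wild type. Wild-type replicate 2 stood apart in 4 neutrophil markers, led by S100a8 and S100a9, which summed to 527 FPKM there, to between 3.39 and 7.41 FPKM in knockout, and to 5.47 and 9.60 FPKM in the other wild-type libraries. All 4 (S100a8, S100a9, Ngp and Camp) were called as fallen in the authors' deposited table and none by limma, where none had an unadjusted p below 0.05.

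Echs1, which encodes the mitochondrial short-chain enoyl-CoA hydratase, was the member that passed limma's test: it rose 2.02-fold in knockout muscle. Most members lay somewhat higher in knockout muscle, 24 of 33 against 50.3% of all 10501 tested genes, with a median log2 fold change of 0.22 against 0.00 over all tested genes. Without wild-type replicate 3, the lowest wild-type library for most members, the median of the members was 0.13. Here and below, log2 fold changes with their standard errors are knockout minus wild type on log2(FPKM + 1), from limma over all tested genes, and they understate the change of low genes. The members are abundant, and the median over the 2371 tested genes with a mean of at least 20 FPKM was 0.08. By limma 1 member rose, where 2.30% of all tested genes rose, and no member fell, where 1.34% of tested genes fell. At an unadjusted p under 0.05, limma had 9 members higher, where 11.0% of all tested genes were, and 1 lower (Acot13), where 8.68% were. At a q-value under 0.05, 5 members were called as risen and 2 as fallen in the authors' deposited table, where 5.90% and 4.94% of its 9204 tested genes were. Every knockout library lay above every wild-type library for 10 members, where this held for 14.2% of all tested genes, and below for 2, where it held for 11.9%.

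**Figure D1:**
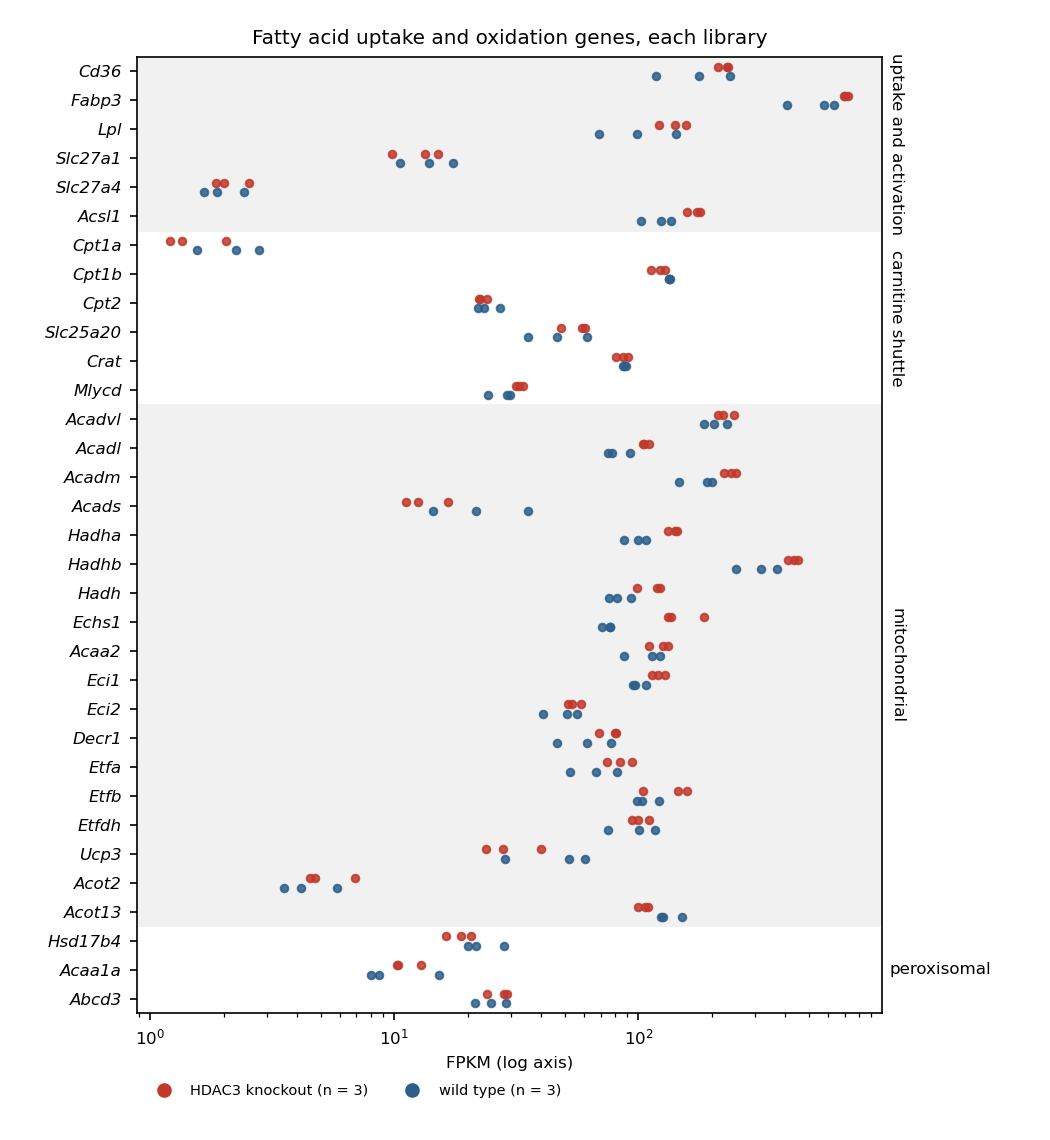
FPKM of each gene (log axis) in the 3 HDAC3 knockout libraries (red, upper row) and the 3 wild-type libraries (blue, lower row), with 1 point per library and genes grouped by step. Echs1 shows the largest fold change, with knockout libraries from 133 to 185 FPKM and wild-type libraries from 71.2 to 76.6 FPKM; for Acads and Ucp3 the groups overlap.

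**Figure D2:**
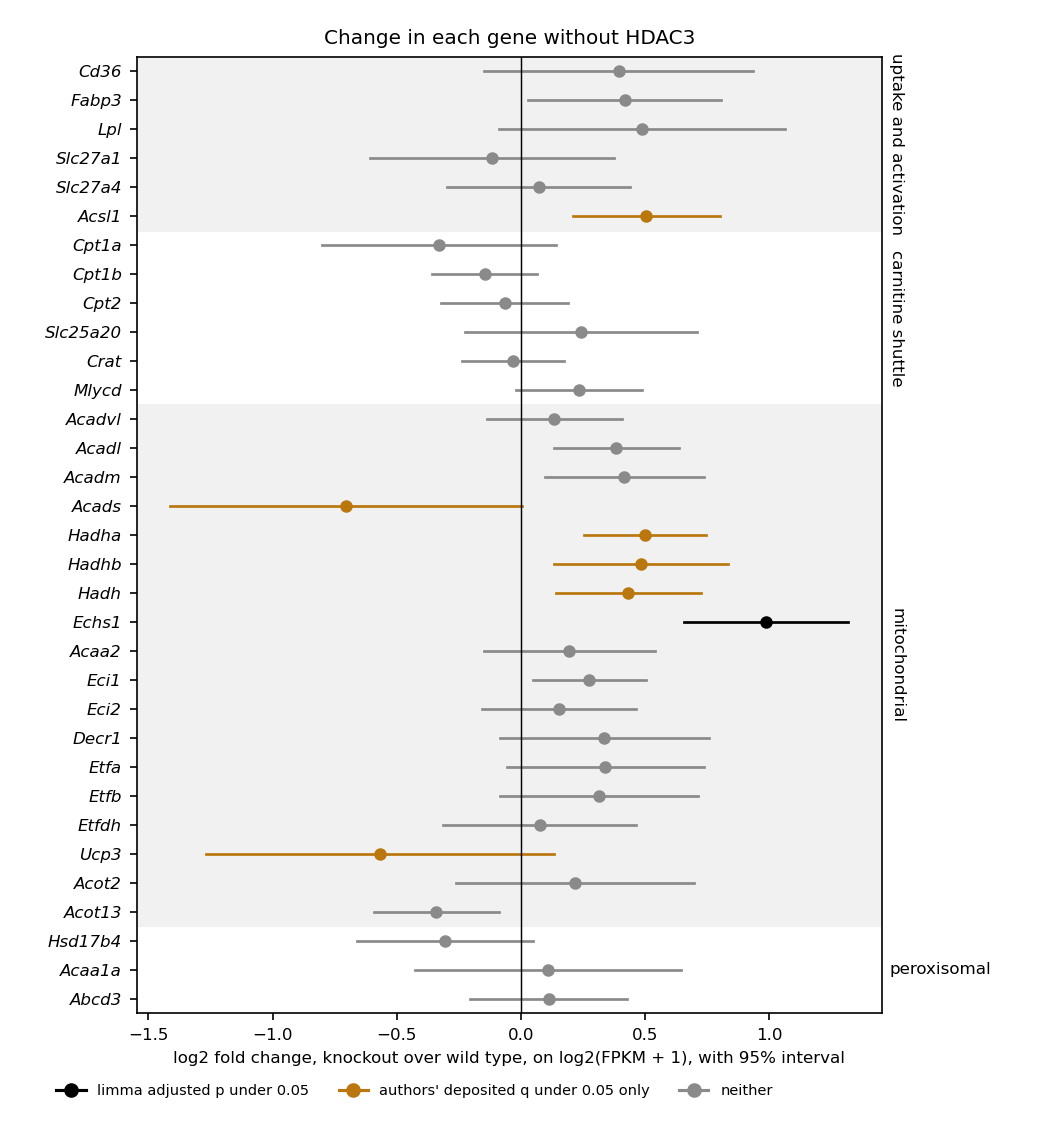
Log2 fold change of each gene, knockout over wild type on log2(FPKM + 1), with its 95% interval from limma. Echs1 (black) passed limma's test; Acsl1, Hadha, Hadhb, Hadh, Acads and Ucp3 (brown) were called in the authors' deposited table only.

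The uptake genes were led by Fabp3, the fatty acid binding protein of heart and muscle and the most abundant member in both groups. Fabp3 had 693, 702 and 722 FPKM in knockout and 630.4, 573 and 407 FPKM in wild-type libraries. The knockout libraries lay close together and above all wild-type libraries, with a log2 fold change of 0.42 ± 0.17 that did not pass (limma, adjusted p = 0.224). Cd36, the fatty acid receptor and transporter of the plasma membrane, had 212, 231 and 232 FPKM in knockout and 237, 178 and 118 FPKM in wild-type libraries. Lpl, the lipase that frees fatty acids from circulating triglyceride, had 122, 156 and 141 FPKM in knockout and 142, 98.8 and 68.9 FPKM in wild-type libraries. For both genes wild-type replicate 1 lay inside or above the knockout range and wild-type replicate 3 was lowest, and neither passed (adjusted p by limma of 0.404 for Cd36 and 0.330 for Lpl). Without wild-type replicate 3 the ratios of knockout to wild-type mean were 1.17 for Fabp3, 1.08 for Cd36 and 1.16 for Lpl, against 1.31, 1.27 and 1.36 with all libraries.

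The transport protein genes differed less between groups. Slc27a1, the main muscle form, averaged 12.7 ± 2.70 FPKM in knockout and 14.0 ± 3.39 FPKM in wild type (SD, n = 3 each). Slc27a4 was low, at 2.14 ± 0.353 FPKM in knockout and 1.99 ± 0.389 FPKM in wild type. The 95% intervals of their log2 fold changes ran from -0.61 to 0.38 and from -0.30 to 0.44.

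Cd36, Lpl and their partners are also expressed by cells between the fibres. Of 8 endothelial markers, led in level by Pecam1 and Egfl7, limma called none (none had an unadjusted p below 0.05) and the authors' deposited table called none; their summed level was 106 to 120.2 FPKM in knockout and 101 to 114 FPKM in wild type. The 6 adipocyte markers, led by Cfd and Adipoq, summed to between 8.61 and 33.4 FPKM in knockout and between 17.1 and 32.5 FPKM in wild type. Of these, Plin1 and Lep were too low to be tested, and Plin1 was listed at 0 in knockout replicate 3. The part of these cells in the levels of the uptake genes was not tested, and in whole muscle fewer cells of a type cannot be told from less RNA per cell. Fabp4, an abundant fatty acid binding protein of endothelium and fat, averaged 372 ± 49.4 FPKM in knockout and 402 ± 87.6 FPKM in wild type and was not called.

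Acsl1, the main long-chain acyl-CoA synthetase of muscle, had 179, 159 and 175 FPKM in knockout and 136, 123 and 102 FPKM in wild-type libraries. Its groups did not overlap and the ratio of means was 1.42. It was called as risen in the authors' deposited table (q = 0.0151) and missed the threshold in limma (log2 fold change 0.51 ± 0.13, adjusted p = 0.0780). Other synthetases differed in both directions. Acsl6 rose 1.76-fold, to 18.1 ± 1.31 FPKM in knockout against 10.3 ± 1.32 FPKM in wild type (limma, adjusted p = 0.0227). The Acsl6 call held without wild-type replicate 3 (adjusted p by limma of 0.0369) and was lost without each of the other libraries, at 0.0516 to 0.102. Acsl3, a form known from lipid droplets, had 4.95, 5.06 and 2.67 FPKM in knockout and 14.3, 9.83 and 5.97 FPKM in wild-type libraries; it was called as fallen in the authors' deposited table (q = 0.00119) and not by limma (adjusted p = 0.125). Acss1, which activates acetate in mitochondria, averaged 12.3 ± 0.992 FPKM in knockout and 6.72 ± 2.60 FPKM in wild type and was called as risen in the authors' deposited table only (q = 0.00119, adjusted p by limma of 0.0947).

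In the carnitine shuttle 2 members lay higher and 4 lower in knockout muscle. None of its 6 genes was called by limma, none had an unadjusted p under 0.05, and none was called in the authors' deposited table. Cpt1b, the muscle form of the outer-membrane carnitine palmitoyltransferase, had 113, 123 and 129 FPKM in knockout and 134, 135 and 133 FPKM in wild-type libraries. All knockout libraries lay below all wild-type libraries, by a ratio of means of 0.905, and the 95% interval of the log2 fold change ran from -0.36 to 0.07. Cpt1a, the form that prevails in liver, was the least abundant member in knockout muscle, at 1.54 ± 0.452 FPKM, against 2.20 ± 0.620 FPKM in wild type (adjusted p by limma of 0.423). Its ratio of means was 0.700, and the 95% interval of its log2 fold change ran from -0.80 to 0.14. Cpt2, on the inner membrane, averaged 23.0 ± 0.956 FPKM in knockout and 24.1 ± 2.75 FPKM in wild type. Slc25a20, the carnitine-acylcarnitine carrier, averaged 55.7 ± 6.56 FPKM in knockout and 47.8 ± 13.2 FPKM in wild type, with an interval from -0.22 to 0.71.

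Crat, which buffers acetyl-CoA as acetylcarnitine, averaged 85.9 ± 4.90 FPKM in knockout and 87.8 ± 1.32 FPKM in wild type, with an interval from -0.24 to 0.17. Mlycd removes malonyl-CoA, the inhibitor of CPT1, and had 31.6, 33.7 and 32.4 FPKM in knockout and 29.7, 29.0 and 24.2 FPKM in wild-type libraries. Its groups did not overlap, yet it did not pass (limma, adjusted p = 0.288). Acaca, one of the enzymes that make malonyl-CoA, averaged 6.67 ± 1.20 FPKM in knockout and 4.06 ± 0.261 FPKM in wild type and was called as risen in the authors' deposited table (q = 0.00119) but not by limma (adjusted p = 0.0689). Acacb, the mitochondria-bound form, averaged 26.8 ± 3.93 FPKM in knockout and 28.1 ± 5.75 FPKM in wild type.

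Within mitochondria, 15 of 18 members lay higher in knockout muscle, with a median log2 fold change of 0.30 (0.17 without wild-type replicate 3). The acyl-CoA dehydrogenases, which differ in the chain length they prefer, differed in direction. Acadm, for medium chains, had 224, 239.7 and 250.2 FPKM in knockout and 200.0, 192 and 146 FPKM in wild-type libraries, and Acadl, for long chains, had 105, 110.0 and 105 FPKM in knockout and 77.6, 92.8 and 75.01 FPKM in wild-type libraries. Neither pair of groups overlapped, and neither gene passed (adjusted p by limma of 0.150 for Acadm and 0.106 for Acadl). Acadvl, for very long chains, averaged 227 ± 18.2 FPKM in knockout and 207 ± 22.5 FPKM in wild type, with overlapping groups.

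Acads, for short chains, lay the other way. It had 11.2, 12.6 and 16.7 FPKM in knockout and 14.4, 21.6 and 35.3 FPKM in wild-type libraries. The groups overlap, and wild-type replicate 3 was the highest of all 6 libraries. Acads was called as fallen in the authors' deposited table (q = 0.00119), whereas limma gave a log2 fold change of -0.70 ± 0.30 that did not pass (adjusted p = 0.255). The wild-type mean was 1.76 times the knockout mean, and 1.34 times without wild-type replicate 3.

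The 5 enzymes of hydration, the second dehydrogenation and thiolysis all lay higher in knockout muscle, where 50.3% of all tested genes did. They held 4 of the 10 members whose knockout libraries all lay above wild type, where this held for 14.2% of all tested genes. Wild-type replicate 3 was the lowest wild-type library for 4 of the 5, where it was for 39.0% of all tested genes. Echs1 had 136, 185 and 133 FPKM in knockout and 76.5, 71.2 and 76.6 FPKM in wild-type libraries. Its log2 fold change was 0.99 ± 0.14 (limma, adjusted p = 0.0184), and the authors' deposited table gave q = 0.00119. By level it was number 7 among the members in knockout, against number 18 in wild type. Leaving out each library in turn gave ratios of means from 1.80 to 2.14. The adjusted p by limma was then 0.0847 without wild-type replicate 2, 0.0589 without knockout replicate 1 and 0.0597 without knockout replicate 3, and between 0.0282 and 0.0435 without each of the others.

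Hadha and Hadhb encode the alpha and beta subunits of the mitochondrial trifunctional protein, which hydrates, dehydrogenates and cleaves long-chain acyl groups. Hadha had 132, 142 and 143 FPKM in knockout and 108, 99.7 and 87.5 FPKM in wild-type libraries, with a ratio of means of 1.41. Hadhb had 435, 409 and 452 FPKM in knockout and 370.1, 316 and 251 FPKM in wild-type libraries, with a ratio of 1.38. Both were called as risen in the authors' deposited table (q = 0.00794 for Hadha and 0.0244 for Hadhb) and neither by limma, where Hadha just missed the threshold (adjusted p of 0.0501 and 0.134). The level of Hadhb was 3.29, 2.89 and 3.16 times that of Hadha in knockout and 3.44, 3.17 and 2.86 times in wild-type libraries, so the ratio of the subunits overlapped between groups.

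Hadh, the dehydrogenase for shorter hydroxyacyl groups, had 99.0, 119 and 122 FPKM in knockout and 93.4, 81.8 and 75.7 FPKM in wild-type libraries. It was called as risen in the authors' deposited table (q = 0.0381) and not by limma (log2 fold change 0.43 ± 0.12, adjusted p = 0.113). Acaa2, the thiolase for shorter chains, averaged 123 ± 11.6 FPKM in knockout and 108 ± 18.2 FPKM in wild type, with overlapping groups and an interval from -0.15 to 0.54.

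The stretches just upstream of Echs1, of the Hadha and Hadhb pair, and of Ucp3 are shown as examples of genes called in each direction. The trifunctional protein genes share theirs. Of these genes only Echs1 was called by limma. Acsl1, Hadh and Acads were also called in the authors' deposited table and are not shown. The stretches are the 250 bases before the annotated start in RefSeq, build GRCm38.p6, in the gene's own direction, with AGGTCA in capitals. AGGTCA is the half-site bound by many nuclear receptors. Hadha and Hadhb are transcribed away from each other, and 272 bases lie between their starts.
Echs1, chr7:140116422-140116671, minus strand: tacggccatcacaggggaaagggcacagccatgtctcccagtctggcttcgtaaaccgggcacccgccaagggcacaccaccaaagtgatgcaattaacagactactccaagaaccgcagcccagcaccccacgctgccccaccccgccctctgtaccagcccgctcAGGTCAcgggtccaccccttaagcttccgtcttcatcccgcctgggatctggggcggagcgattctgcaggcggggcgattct
Hadhb, chr5:30155003-30155252, plus strand: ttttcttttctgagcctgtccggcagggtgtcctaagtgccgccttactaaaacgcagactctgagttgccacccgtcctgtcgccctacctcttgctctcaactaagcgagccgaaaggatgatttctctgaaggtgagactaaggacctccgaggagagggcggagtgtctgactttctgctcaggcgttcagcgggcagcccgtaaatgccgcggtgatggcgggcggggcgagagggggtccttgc
Ucp3, chr7:100472741-100472990, plus strand: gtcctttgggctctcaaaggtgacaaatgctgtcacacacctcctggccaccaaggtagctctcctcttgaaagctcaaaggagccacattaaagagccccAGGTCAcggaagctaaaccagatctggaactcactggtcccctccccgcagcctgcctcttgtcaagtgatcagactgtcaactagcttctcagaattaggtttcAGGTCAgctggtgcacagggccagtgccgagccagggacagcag

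RefSeq start windows were found for 26 of the 33 members (30 windows, since some genes have several starts). Searched on both strands, AGGTCA stood in 6 of the 30 windows (20.0%), those of Acadm, Acadvl, Cd36, Cpt1a, Echs1 and Ucp3, against 14.0% of all 32851 mouse windows of the same length. The genes with the letters include some that lay higher and some that lay lower in knockout muscle. The longer TNAAGGTCA, which contains AGGTCA and is the letter pattern of estrogen-related receptors, stood in 0 of the 30 windows against 1.14% of all windows. The E-box CACGTG, bound by clock factors among others, stood in 1 window, a start of Slc27a1, against 6.02% of all windows. These are matches of letters within 250 bases and say nothing of binding.

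Genes for unsaturated fatty acids all had higher means in knockout muscle, and none was called. Eci1, an enoyl-CoA isomerase, had 120.1, 113 and 129 FPKM in knockout and 96.6, 95.2 and 107 FPKM in wild-type libraries; its groups did not overlap and it did not pass (limma, adjusted p = 0.176). Decr1, the dienoyl-CoA reductase, averaged 76.8 ± 6.63 FPKM in knockout and 61.7 ± 15.2 FPKM in wild type, and Eci2, an isomerase also found in peroxisomes, 54.4 ± 3.59 FPKM in knockout and 49.2 ± 7.66 FPKM in wild type. Both overlapped between groups and neither was called. Without wild-type replicate 3 the log2 fold changes were 0.33 for Eci1, 0.15 for Decr1 and 0.03 for Eci2, against 0.27, 0.34 and 0.15 with all libraries.

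The electron transfer flavoprotein genes overlapped between groups. Etfa, the alpha subunit, averaged 84.2 ± 9.72 FPKM in knockout and 67.0 ± 14.4 FPKM in wild type, and Etfb, the beta subunit, 136 ± 28.3 FPKM in knockout and 108 ± 11.7 FPKM in wild type. Etfdh, which hands the electrons to ubiquinone, averaged 101 ± 8.62 FPKM in knockout and 97.3 ± 20.9 FPKM in wild type. The adjusted p by limma was 0.324, 0.361 and 0.850 in that order.

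Of 3 genes that act beside the oxidation sequence, 2 lay lower in knockout muscle. Ucp3, a mitochondrial carrier linked to fatty acid handling, had 27.9, 40.0 and 23.7 FPKM in knockout and 60.2, 52.1 and 28.3 FPKM in wild-type libraries. Wild-type replicate 3 lay within the knockout range. Ucp3 was called as fallen in the authors' deposited table (q = 0.00119) and not by limma (log2 fold change -0.57 ± 0.30, adjusted p = 0.351). Acot13, an acyl-CoA thioesterase, had 109, 99.5 and 106 FPKM in knockout and 150.5, 126 and 124 FPKM in wild-type libraries, so all knockout libraries lay below all wild-type libraries. Acot13 did not pass either rule (adjusted p by limma of 0.140, and q = 0.156 in the authors' deposited table). Acot2, another thioesterase, averaged 5.39 ± 1.32 FPKM in knockout and 4.50 ± 1.20 FPKM in wild type.

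Among the peroxisomal members no gene was called, none had an unadjusted p under 0.05 by limma, and all 3 overlapped between groups. Hsd17b4, the peroxisomal hydratase and dehydrogenase, averaged 18.5 ± 2.10 FPKM in knockout and 23.3 ± 4.35 FPKM in wild type, with an interval from -0.66 to 0.05. Abcd3, a half-transporter of the peroxisomal membrane, averaged 27.0 ± 2.59 FPKM in knockout and 25.0 ± 3.71 FPKM in wild type. Acaa1a, the peroxisomal thiolase, averaged 11.2 ± 1.44 FPKM in knockout and 10.6 ± 3.98 FPKM in wild type.

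Of 18 further genes of peroxisomal oxidation, 16 were tested, 5 lay higher and 11 lower in knockout muscle. Limma called none of them. At an unadjusted p below 0.05 by limma 1 was higher and 4 were lower, where 11.0% and 8.68% of all tested genes were. Every knockout library lay above every wild-type library for 1 and below for 5, where this held for 14.2% and 11.9% of all tested genes. The authors' deposited table called 1 as fallen. That gene was Phyh, of the alpha-oxidation of branched chains, with 125, 134 and 140.1 FPKM in knockout and 199, 180.5 and 159.7 FPKM in wild-type libraries (q = 0.0324 in the authors' deposited table, adjusted p by limma of 0.0877). Ehhadh, a bifunctional enzyme of the peroxisome, averaged 2.23 ± 0.582 FPKM in knockout and 2.25 ± 0.385 FPKM in wild type.

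Set side by side, the steps differed in their medians. The median log2 fold change was 0.41 for uptake and activation (0.20 without wild-type replicate 3), -0.05 for the carnitine shuttle, 0.30 for mitochondrial oxidation (0.17 without wild-type replicate 3) and 0.11 for peroxisomal oxidation. The peroxisomal median of 3 genes was -0.05 without wild-type replicate 1, and 0.00, 0.01 and 0.01 without wild-type replicate 2, wild-type replicate 3 and knockout replicate 3. The shuttle's median lay between -0.08 and 0.00 without each library in turn. Genes are not replicates, so these are descriptions. The FPKM of the 6 uptake and activation genes summed to 1217, 1263 and 1288 in knockout and to 1158, 988 and 716 in wild-type libraries. The 18 mitochondrial genes summed to 2140.0, 2281 and 2352 in knockout and to 2036, 1854 and 1619 in wild-type libraries. For both sums all knockout libraries lay above all wild-type libraries, but the most abundant genes weigh most in a sum. Gene by gene, this held for 2 of the 6 uptake and activation genes, and the other 4 overlapped. It held for 7 of the 18 mitochondrial genes, while 10 overlapped and 1 lay below. Over all tested genes it held for 14.2%. The carnitine shuttle genes summed to 297, 332 and 332 FPKM in knockout and to 344, 323 and 303 FPKM in wild-type libraries, and the peroxisomal genes to 50.7, 59.0 and 60.4 FPKM in knockout and to 65.0, 55.3 and 56.6 FPKM in wild-type libraries, both with overlap. Fabp3, which passed neither rule, and Hadhb are the main contributors to the first and the second of these sums.

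**Figure D3:**
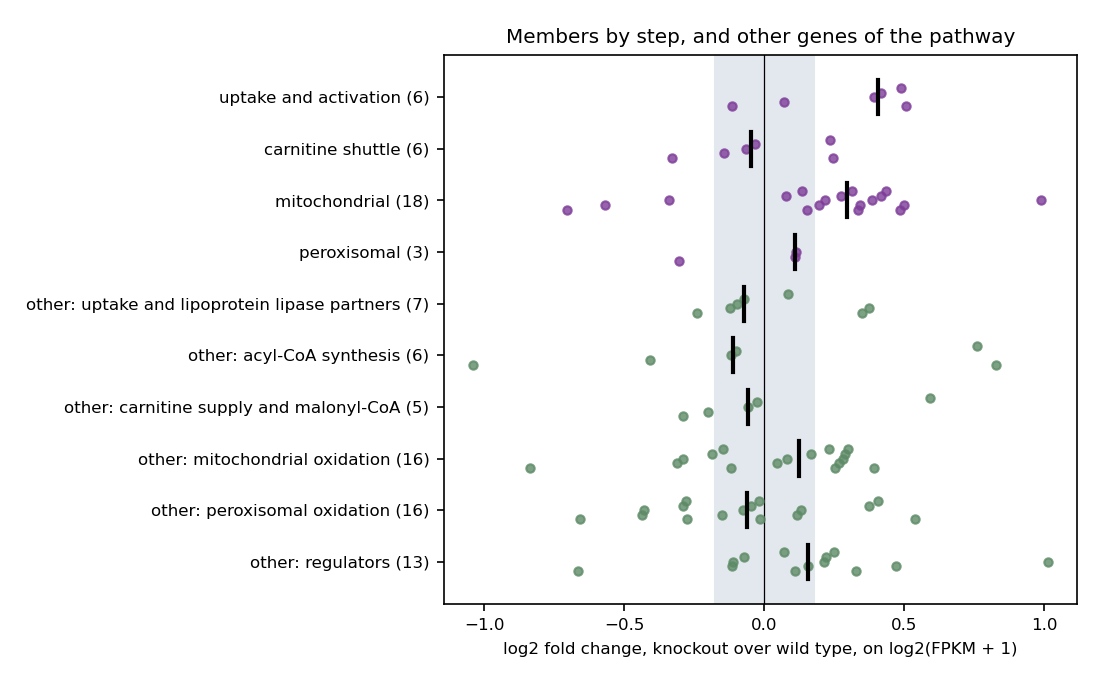
Log2 fold change, knockout over wild type on log2(FPKM + 1), of the 33 members by step (purple) and of 63 other tested genes of the pathway by list (green), with 1 point per gene, black bars at the medians and the number of genes in brackets. The medians are 0.41 for uptake and activation and 0.30 for mitochondrial members. The shaded band, from -0.18 to 0.18, holds the middle 50% of single genes among all 10501 tested and is not the spread of a median.

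Of 75 other genes of the pathway, 63 were tested; 30 lay higher and 33 lower in knockout muscle, with a median log2 fold change of -0.02. Limma called 2 as risen, Acsl6 and Esrrg, where 2.30% of all tested genes rose, and none as fallen, where 1.34% fell. At an unadjusted p below 0.05 by limma 9 were higher and 9 lower, where 11.0% and 8.68% of all tested genes were. Without wild-type replicate 2, knockout replicate 1 or knockout replicate 3, limma called none of these 63 genes, without knockout replicate 2 it called 1, and without wild-type replicate 1 it called 3. Of the 59 tested in the authors' deposited table, 4 were called as risen (Acsl6, Esrrg, Acss1 and Acaca) and 3 as fallen (Acsl3, Bdh1 and Phyh). Of all 9204 genes tested there, 5.90% were called as risen and 4.94% as fallen. Among the tested genes, partners of uptake and lipoprotein lipase numbered 3 higher and 4 lower, acyl-CoA synthesis 2 higher and 4 lower, carnitine and malonyl-CoA supply 1 higher and 4 lower, and regulators 9 higher and 4 lower. Among 16 tested genes of mitochondrial oxidation outside the members, 10 lay higher and 6 lower, none passed by limma (2 higher and 2 lower at an unadjusted p below 0.05), while the authors' deposited table called Bdh1 as fallen. Bdh1, a ketone body dehydrogenase, had 5.92, 3.91 and 12.8 FPKM in knockout and 14.1, 13.7 and 11.1 FPKM in wild-type libraries, with knockout replicate 3 inside the wild-type range. Ech1, a dienoyl-CoA isomerase, averaged 198 ± 24.1 FPKM in knockout and 165 ± 13.8 FPKM in wild type.

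Regulators of these genes were read from the same fit. Esrrg, an estrogen-related receptor that activates oxidative genes, had 13.9, 12.0 and 16.7 FPKM in knockout and 6.70, 6.85 and 5.87 FPKM in wild-type libraries, and rose 2.19-fold (limma, adjusted p = 0.0182). The Esrrg call was lost without wild-type replicate 2 (adjusted p by limma of 0.0844), knockout replicate 1 (0.0659) or knockout replicate 3 (0.0690), and held without each of the others. Ppara and Ppard, the lipid-sensing receptors, averaged 9.10 ± 2.58 and 3.39 ± 0.727 FPKM in knockout and 8.33 ± 2.24 and 2.21 ± 0.825 FPKM in wild type, and Ppargc1a, their coactivator, 15.0 ± 2.86 FPKM in knockout and 11.8 ± 2.66 FPKM in wild type. None of these 3 was called by limma, in which the lowest of their unadjusted p was 0.0755, or in the authors' deposited table. Of 8 genes chosen to stand for mitochondrial content, 7 lay higher, where 50.3% of all tested genes did. The median log2 fold change of the 8 was 0.17, against 0.08 over the tested genes with a mean of at least 20 FPKM. Cs, citrate synthase, had the largest of the 8, 0.42, and averaged 378 ± 31.4 FPKM in knockout and 283 ± 34.7 FPKM in wild type. Atp5a1 and Cox4i1, the most abundant of the 8, were at 0.22 and -0.02. Limma called none of the 8, and the authors' deposited table called none. At an unadjusted p under 0.05 by limma 2 were higher, where 11.0% of all tested genes were.

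One wild-type library weighed on many members. Wild-type replicate 3 was the lowest wild-type library for 26 of the 33 members, where it was for 39.0% of all tested genes. Knockout replicate 1 was the lowest knockout library for 21 members, where it was for 36.3% of all tested genes. The median deviation of the members from their mean over the 6 libraries was 0.01, 0.12 and 0.19 in knockout and 0.07, -0.09 and -0.33 in wild-type libraries, while over all tested genes it stayed between -0.01 and 0.01. Wild-type replicate 3 was the highest wild-type library for the other 7 members (35.3% of all tested genes), Slc27a1, Slc27a4, Acads, Echs1, Eci1, Etfb and Acaa1a. The members were also less spread among the 3 knockout libraries than among the 3 wild-type libraries, which include replicate 3. The coefficient of variation was smaller in knockout for 27 of the 33, against 52.9% of all tested genes. Its medians were 8.64% in knockout and 16.9% in wild type for the members, and 13.2% in knockout and 13.9% in wild type over all tested genes. Genes are not replicates, so this is a description, and it was not computed without wild-type replicate 3. Together the members made up 0.797%, 0.800% and 0.814% of the FPKM sum in knockout and 0.772%, 0.709% and 0.556% in wild-type libraries. What sets that library apart was not tested.

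**Figure D4:**
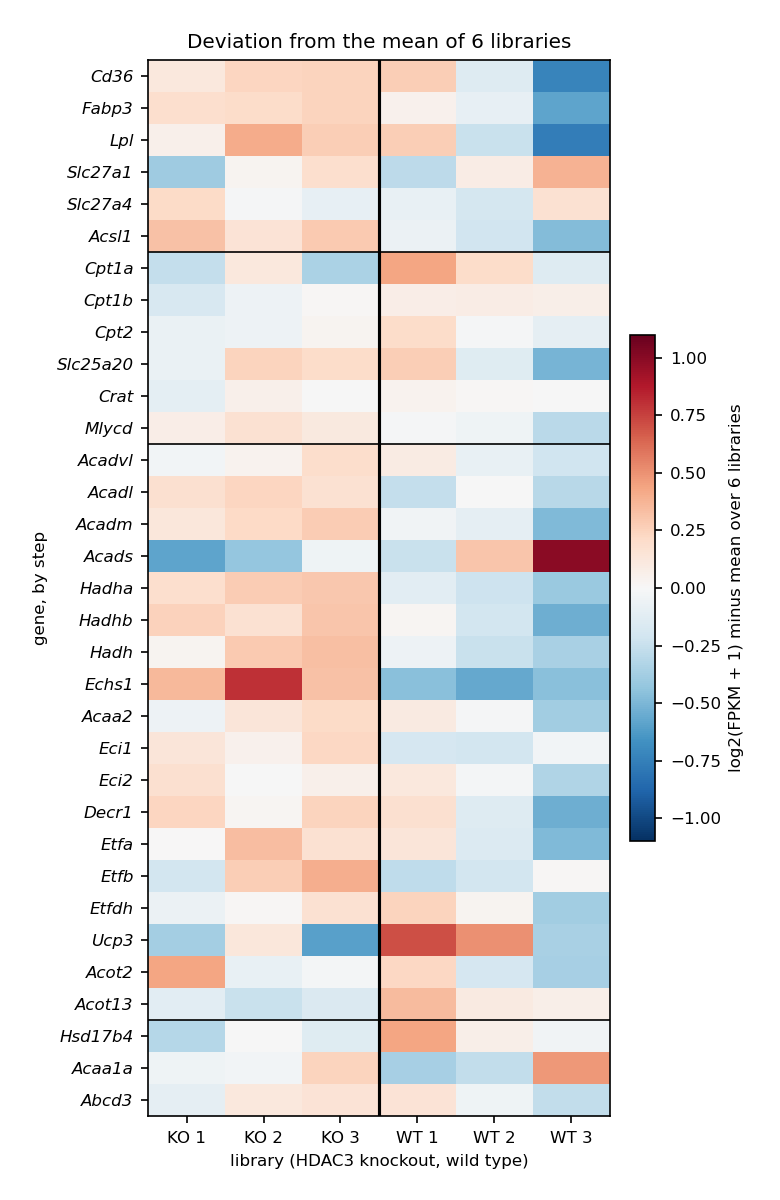
Deviation of each gene in each library from its mean over the 6 libraries, in log2(FPKM + 1), with the 3 HDAC3 knockout libraries left and the 3 wild-type libraries right and lines between the steps. Wild-type replicate 3 is blue (low) for most members and red (high) for Acads, Acaa1a and Slc27a1; Echs1 is red in all knockout and blue in all wild-type libraries.

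Fibre and tissue markers are given beside these levels. Of 7 tested slow fibre genes 4 lay higher and 3 lower, and of 10 fast fibre genes 6 higher and 4 lower; limma called none of either list (1 slow gene higher at an unadjusted p below 0.05), while the authors' deposited table called 1, Myl3, as risen. Of 5 fibroblast markers the authors' deposited table called Col1a1 and Col1a2 as fallen (q = 0.00119 each), at 26.0 ± 13.7 and 49.9 ± 18.9 FPKM in knockout against 45.7 ± 18.4 and 77.3 ± 8.66 FPKM in wild type. Limma called none of the 5 (1 lower at an unadjusted p under 0.05). Des, the muscle intermediate filament desmin, rose among 6 genes of muscle fibres in general, to 959.7 ± 119.5 FPKM in knockout against 499 ± 111 FPKM in wild type (limma, adjusted p = 0.0326). At an unadjusted p under 0.05 by limma 2 of the 6 were higher and 0 lower, where 11.0% and 8.68% of all tested genes were. Every knockout library lay above every wild-type library for 3 of the 6, where this held for 14.2% of all tested genes. The Des call held without wild-type replicate 3 (adjusted p by limma of 0.0258) and was lost without each of the other libraries, at 0.0757 to 0.132. Macrophage markers summed to between 22.1 and 31.9 FPKM in knockout and between 24.6 and 28.9 FPKM in wild type, and red blood cell genes to between 63.2 and 232 FPKM in knockout and between 60.9 and 275 FPKM in wild type. The 6 genes of muscle fibres in general summed to 20993, 26149 and 29337 FPKM in knockout and to 18572, 19903 and 31365 FPKM in wild-type libraries. Wild-type replicate 3 was the highest wild-type library for 5 of these 6 genes and the lowest for 1. Over all tested genes it was highest for 35.3% and lowest for 39.0%. The part of muscle fibres, fibre type, blood or connective tissue in the members' levels was not tested.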

How the data were processed

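RNA-seq of quadriceps at ZT10 was compared between 3 HDAC3 knockout and 3 wild-type libraries, grouped by the labels; the other 8 of 14 samples were not used. The authors deposited FPKM per library, with p-values and q-values per gene, for which the submitters' processing notes name TopHat2, Cuffdiff and the build mm9. No source used here gives their versions, the annotation, the strandedness or the scaling of libraries. Peak positions are on mm9 and were not used, as no mm9 annotation was at hand. Depth is known only relative to wild-type replicate 1, from genes under 0.3 FPKM, so no counting intervals are given; library sizes limit the precision of low genes.

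FPKM were tested with limma 3.58.1 (R 4.3.3) on log2(FPKM + 1) with a mean-variance trend, two-sided, over the 10501 genes with a mean of at least 1 FPKM, with Benjamini-Hochberg adjustment over all of them and a threshold of 0.05. The fit was tested on simulated data. The q-value under 0.05 in the authors' deposited table is the second rule; genes with a p-value under 1 there count as tested. Fold changes are ratios of mean FPKM. The text names all members, called genes of the other lists, set genes (Ppara, Ppard, Ppargc1a, Ech1, Ehhadh; another is not reported here) and leading markers; Fabp4, Acacb, Esrra, Cs, Plin1, Lep, Myh4 and Myh7 fall outside this and were named after their values were seen. Members and lists were chosen with earlier results of these data known. Alternatives covered the pseudocount, filter, scaling, trend, replicate block and each library left out.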

Additional observations from a re-analysis of the deposited data

How the results depend on the processing

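Rescaling the libraries by median ratios, a pseudocount of 0.1 and a fit without the trend left 1 member risen and 0 fallen by limma. Over the genes tested by the authors 2 members rose (Echs1 and Hadha, adjusted p = 0.0448). At a q-value under 0.05, 5 members were risen and 2 fallen in the authors' deposited table, as were 543 and 455 of all genes and 4 and 3 other pathway genes. Without a filter on low values 152 genes rose. With the replicate number as a block 23 genes rose and 13 fell, and 0 members and 0 other pathway genes rose (Echs1, adjusted p = 0.0680). Same-numbered libraries shared deviations with correlations of 0.0370, 0.0524 and 0.0467, each sample correlating best with its own number, which is a hint from the data only; the labels give no pairing. Leaving out single libraries gave 14 to 149 risen and 7 to 82 fallen genes (lowest without wild-type replicate 2), 0 to 1 risen and 0 to 0 fallen members, and 0 to 3 risen and 0 to 0 fallen other pathway genes. Medians then ran from 0.13 to 0.26 for all members, 0.20 to 0.57 for uptake and activation, -0.08 to 0.00 for the carnitine shuttle, 0.17 to 0.32 for mitochondrial and -0.05 to 0.16 for peroxisomal members. The sign turned for 6 uncalled members, whose log2 fold changes ran from -0.29 to 0.049 for Slc27a1 (above 0 without wild-type replicate 3, 0.045, or knockout replicate 1), -0.017 to 0.17 for Slc27a4 (below 0 without wild-type replicate 2, -0.0073, or knockout replicate 1), -0.13 to 0.022 for Cpt2 (above 0 without wild-type replicate 1), -0.069 to 0.012 for Crat (above 0 without knockout replicate 1), -0.097 to 0.22 for Etfdh (below 0 without wild-type replicate 3) and -0.048 to 0.37 for Acaa1a (below 0 without wild-type replicate 1). Every fit with a library left out had fewer samples than the main fit, and the counts also differed widely among those fits. The causes were not tested.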

Other observations

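Some ratios between genes of the pathway within a library, chosen after their values were seen, are given as values. Acadm over Acads and Acsl6 over Acsl3 each set a gene higher in knockout against one lower. A gap between groups in these ratios was therefore favoured by the choice. The level of Acadm was 20.0, 19.1 and 15.0 times that of Acads in knockout and 13.9, 8.88 and 4.14 times in wild-type libraries. The groups did not overlap, and the wild-type libraries were widely spread. The level of Cpt1b was 83.1, 59.7 and 106 times that of Cpt1a in knockout and 47.8, 60.0 and 85.5 times in wild-type libraries, with overlap. The level of Acsl6 was 3.58, 3.86 and 6.36 times that of Acsl3 in knockout and 0.636, 1.03 and 1.96 times in wild-type libraries, with no overlap. Esrra, another estrogen-related receptor, had 8.06, 14.4 and 15.2 FPKM in knockout and 12.1, 16.3 and 38.9 FPKM in wild-type libraries, so that, as for Acads, wild-type replicate 3 was the highest of the 6 libraries.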
